A study of Mus musculus with 15 samples.

Results

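mmu-miR-34a-5p and mmu-miR-34c-5p, the 5′ strands of members of the p53-linked miR-34 family of mouse (mmu), were followed in Kupffer cells, macrophages that reside in the liver. They were taken by name from the 2 deposited tables of mature miRNA levels, 1 for each age, and make up 2 of the 248 miRNAs listed in both. Small RNA was sequenced from 15 libraries: 4 of wild-type C57BL/6J mice and 3 of ob/ob mice at 9 weeks of age, and 4 of each at 14 weeks. The ob/ob strain carries a loss-of-function mutation of the leptin gene and becomes obese. The labels name the wild-type strain C57BL/6J and the obese strain ob/ob without its background. They name no treatment, and they do not say whether the libraries of a group came from separate animals, so the p-values below measure the spread between these libraries.

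The miR-34 genes are known targets of the transcription factor p53, which switches them on after DNA damage and other stress. Their mature products repress mRNAs of cell-cycle and survival genes such as Bcl2, Cdk6 and Met, and that of the deacetylase Sirt1, whose loss raises p53 activity. In liver, miR-34a is known from hepatocytes in fatty liver disease, and miR-34b and miR-34c are expressed most in ciliated epithelium and testis.

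Mir34a, a miRNA gene of its own, lies on the plus strand at chr4:150068454-150068555 (GRCm38, GENCODE M21), and its last 17 bases overlap Gm37795, a transcript of the class to be experimentally checked. Mir34c lies at chr9:51103034-51103110 on the minus strand, in an intron of Btg4, which runs on the plus strand from 51060901 to 51119875. Mir34b lies beside it at chr9:51103562-51103645, also on the minus strand. The sequences here come from RefSeq (GRCm38.p6), where 218 of the 248 listed miRNAs and 1 of the 2 members, miR-34a-5p, were matched by name. Among the 1679 mature sequences of that table, 4 carried the miR-34 seed GGCAGUG at bases 2 to 8, and miR-34a-5p was the only one of these 4 also listed in the expression tables. miR-34c-5p had no sequence in that source, so its seed was not compared and it could not be among the 4. The 4 are shown to place miR-34a-5p among its seed relatives, with the seed in capitals.
miR-34a-5p: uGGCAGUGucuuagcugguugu
miR-34b-5p: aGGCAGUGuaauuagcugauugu
miR-449a-5p: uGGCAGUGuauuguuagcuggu
miR-449c-5p: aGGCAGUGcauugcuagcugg
Compared position by position from the 5′ end, miR-34a-5p shared 15 of 22 bases with miR-449a-5p, 12 of 21 with miR-449c-5p and 11 of 22 with miR-34b-5p. No gap was allowed, so shared bases shifted by 1 place, as in the longer miR-34b-5p (23 bases), were not counted. These counts therefore do not rank the relatives by likeness. The hairpin that miR-34a-5p is cut from is shown to give its place in the precursor, with the mature strand in capitals at positions 20 to 41.
Mir34a hairpin: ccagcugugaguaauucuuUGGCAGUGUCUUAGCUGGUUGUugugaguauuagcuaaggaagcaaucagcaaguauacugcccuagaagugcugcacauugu

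The table headers do not name a unit. The deposited values were read as RPM (reads per 1000000), because those of a library were whole multiples of 1 step. Such steps show that each library was scaled by 1 constant, and do not fix its base. The base of 1000000 is therefore assumed. On that reading the depth of a library was 9.08 to 98.1 M reads (M, 1000000). Depth was higher in the ob/ob groups, at 31.0 ± 4.46 (SD, n = 3) against 16.1 ± 4.44 M (n = 4) at 9 weeks and 63.2 ± 24.1 against 24.0 ± 12.2 M (n = 4 each) at 14 weeks. The listed miRNAs summed to between 147387 and 358621 RPM, lowest in wild-type replicate 1 at 14 weeks, which was also the shallowest library. Libraries of the same group correlated at 0.952 to 0.988 across miRNAs, over 21 pairs. At 9 weeks this sum was 336291 ± 28950 RPM in wild type and 242718 ± 10479 RPM in ob/ob (SD, n = 4 and 3; exact permutation p = 0.0571, the smallest possible), with no overlap. For that reason the folds and fits of the 2 members and the list counts are also given after median-ratio rescaling, which sets the typical miRNA level in each library. Other levels are as deposited.

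miR-34a-5p was higher in ob/ob Kupffer cells at both ages, by 2.45-fold at 9 weeks and 3.78-fold at 14 weeks between group means. After rescaling these were 3.50-fold and 3.39-fold. miR-34c-5p was higher in ob/ob cells at 14 weeks, by 3.13-fold, or 2.73-fold after rescaling. Its 2 groups at 9 weeks overlapped on both scales. Both members were minor miRNAs of these cells. In rank of level among the 248 listed, miR-34a-5p lay between 87 and 137 and miR-34c-5p between 124 and 158.

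**Figure D1:**
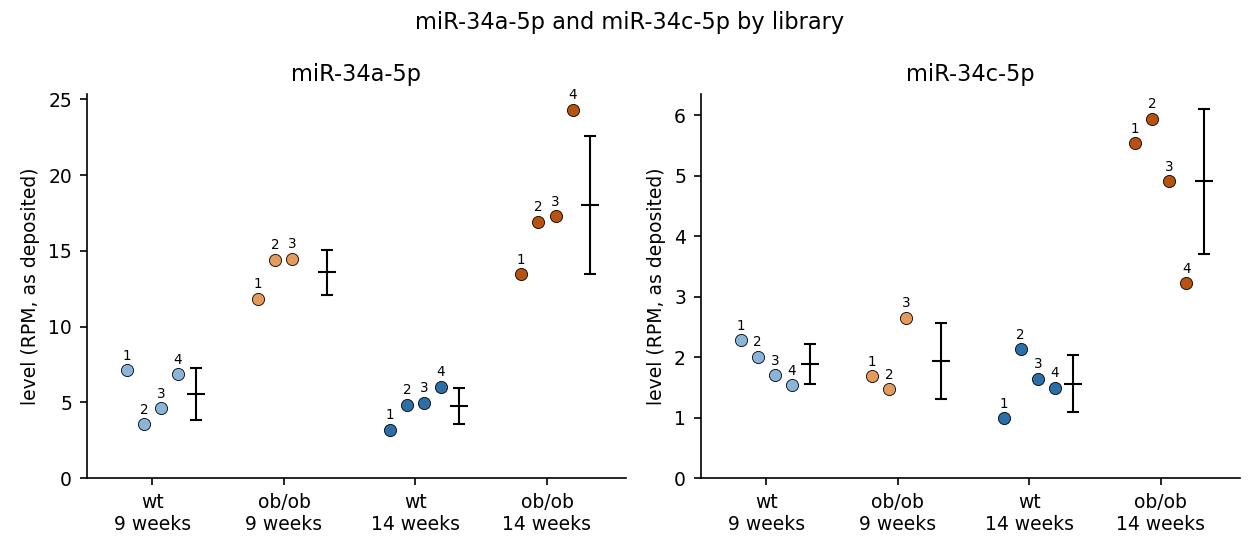
Level of miR-34a-5p and of miR-34c-5p in RPM in each library (points, numbered by replicate) by genotype and age, with group mean and SD (black bars). For miR-34a-5p the lowest ob/ob library, 11.8 RPM, lies above the highest wild-type library, 7.11 RPM, and for miR-34c-5p only the 14-week ob/ob libraries, at 3.22 to 5.95 RPM, stand above all others.

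At 9 weeks, miR-34a-5p stood at 7.11, 3.58, 4.62 and 6.86 RPM in wild-type replicates 1 to 4, a mean of 5.54 ± 1.72 (SD, n = 4). In ob/ob replicates 1 to 3 it stood at 11.8, 14.4 and 14.5 RPM, a mean of 13.6 ± 1.51 (SD, n = 3). Every ob/ob library was above every wild-type one, as it was for 7.26% of the 179 miRNAs tested at this age. The log2 fold change was 1.26 ± 0.28 (SE; 95% interval 0.63 to 1.90; adjusted p = 0.00984, limma with Benjamini-Hochberg adjustment). It ran against the drift of the table, whose median log2 fold change was -0.51. After rescaling, it was 1.74 ± 0.26 (limma adjusted p = 0.00819).

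At 9 weeks, 1 of the 2 members was thus called at an adjusted p under 0.05, against 37.4% of the 179 tested, and it rose, as 5.03% of those tested did. After rescaling, the same member was called, against 21.5% of 177 tested, where 11.3% rose. Ordered from the largest rise to the largest fall, miR-34a-5p ranked 8 of 179.

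At 14 weeks, miR-34a-5p stood at 3.19, 4.84, 4.98 and 6.03 RPM in wild-type replicates 1 to 4, a mean of 4.76 ± 1.17 (SD, n = 4). In ob/ob replicates 1 to 4 it stood at 13.5, 16.9, 17.3 and 24.3 RPM, a mean of 18.0 ± 4.56 (SD, n = 4). The groups again did not overlap, and the ob/ob libraries spread more widely, with replicate 4 the highest. Every ob/ob library was above every wild-type one for 22.2% of the 171 miRNAs tested at this age. The log2 fold change was 1.81 ± 0.28 (SE; 95% interval 1.18 to 2.44; limma adjusted p = 0.00256), beside a median of 0.20 over all tested. It ranked 8 of 171 from the largest rise to the largest fall. After rescaling it was 1.61 ± 0.26 (limma adjusted p = 0.00365).

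miR-34c-5p at 9 weeks stood at 2.28, 2.01, 1.71 and 1.54 RPM in wild-type replicates 1 to 4, a mean of 1.88 ± 0.330 (SD, n = 4). In ob/ob replicates 1 to 3 it stood at 1.68, 1.47 and 2.65 RPM, a mean of 1.93 ± 0.633 (SD, n = 3). The groups overlapped, with both the lowest and the highest of the 7 libraries in ob/ob. The log2 fold change was 0.01 ± 0.25 (SE; 95% interval -0.57 to 0.59; limma adjusted p = 0.976), and its sign turned when 1 library was left out. After rescaling it was 0.42 ± 0.26, with an interval of -0.18 to 1.01 (limma adjusted p = 0.268). A rise of up to 1.01 on the log2 scale lies within the interval after rescaling.

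At 14 weeks, miR-34c-5p stood at 0.991, 2.13, 1.65 and 1.50 RPM in wild-type replicates 1 to 4, a mean of 1.57 ± 0.468 (SD, n = 4). In ob/ob replicates 1 to 4 it stood at 5.54, 5.95, 4.91 and 3.22 RPM, a mean of 4.91 ± 1.20 (SD, n = 4). The groups did not overlap, and ob/ob replicate 4, the highest in miR-34a-5p, was the lowest of its group in miR-34c-5p. The lowest wild-type value rested on 9 reads, with an exact Poisson 95% interval of 0.453 to 1.88 RPM that covers counting error only. The log2 fold change was 1.39 ± 0.28 (SE; 95% interval 0.77 to 2.01; limma adjusted p = 0.00858), rank 16 of 171 from the largest rise to the largest fall. After rescaling it was 1.21 ± 0.20 (limma adjusted p = 0.00365).

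At 14 weeks, both members were called, against 15.2% of the 171 tested, and both rose, as 11.7% of those tested did. After rescaling, the same 2 were called, against 27.8% of 169 tested, where 15.4% rose.

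In the 14-week table, replicates 1 and 2 of each genotype were sequenced in lane 1 and replicates 3 and 4 in lane 2, while all 9-week libraries were in lane 2. The log2 fold change of miR-34a-5p was 1.81 within lane 1 and 1.81 within lane 2 (limma adjusted p = 0.335 and 0.0152). That of miR-34c-5p was 1.66 within lane 1 and 1.12 within lane 2 (limma adjusted p = 0.335 and 0.0457). The lane 1 values came from 2 libraries a genotype, among them the shallow wild-type replicate 1, and did not pass the threshold. With lane as a term over all 8 libraries, the adjusted p was 0.0054 for miR-34a-5p and 0.0172 for miR-34c-5p.

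**Figure D2:**
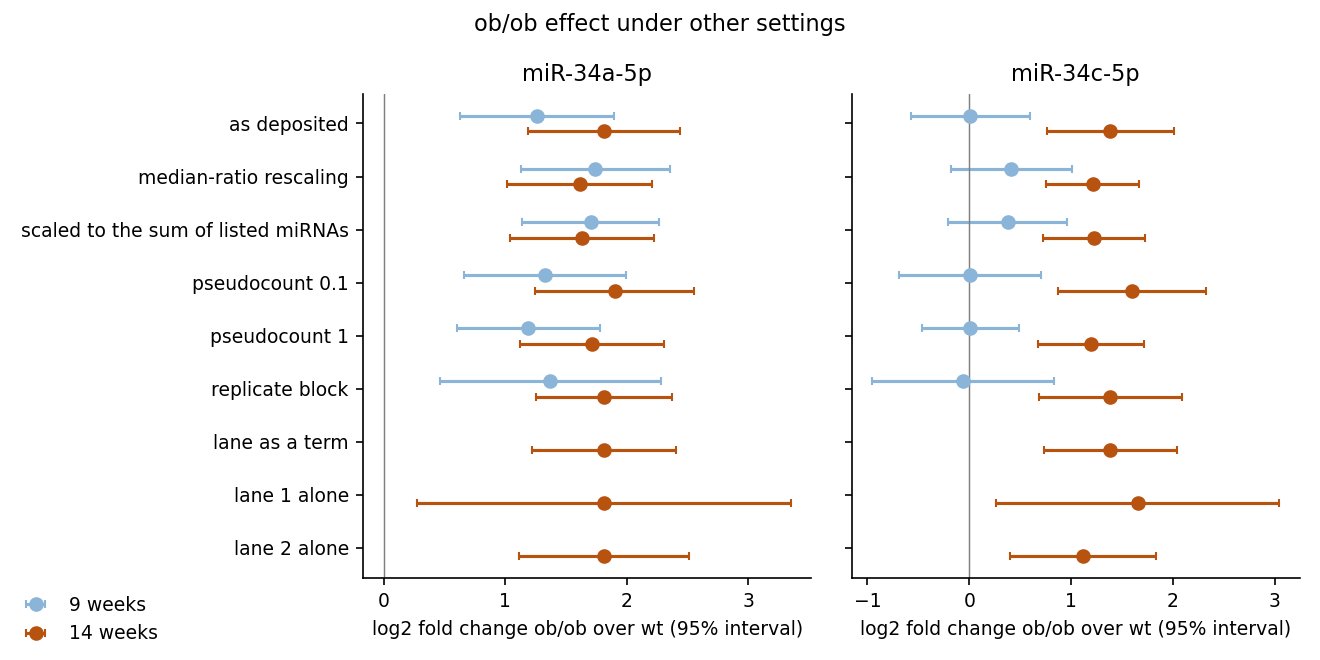
Log2 fold change of ob/ob over wild type with its 95% interval for each member at 9 weeks and 14 weeks, under 9 ways of scaling, fitting or subsetting the libraries. Every miR-34a-5p value and every 14-week miR-34c-5p value lies above 0, and the 9-week miR-34c-5p intervals all include 0.

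Whether the ob/ob effect itself differed between the ages was tested in 1 fit over the 15 libraries. For miR-34c-5p, the effect was larger at 14 weeks by 1.38 ± 0.37 on the log2 scale (SE; 95% interval 0.59 to 2.16), with an unadjusted p of 0.00203 that did not pass adjustment (limma adjusted p = 0.0948). It was the 4th smallest p of 187. After rescaling the difference was 0.80 ± 0.29 (unadjusted p = 0.0159, limma adjusted p = 0.354). For miR-34a-5p, the difference was 0.55 ± 0.39 (95% interval -0.28 to 1.38; unadjusted p = 0.176, limma adjusted p = 0.360), and it turned to -0.13 ± 0.37 after rescaling.

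None of the 187 miRNAs passed this test in limma (0%), nor any of 188 after rescaling, although 48 and 16 had an unadjusted p under 0.05. The median difference over all tested was 0.68 as deposited and -0.02 after rescaling. The rise of miR-34c-5p at 14 weeks is therefore not shown to be particular to that age.

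**Figure D3:**
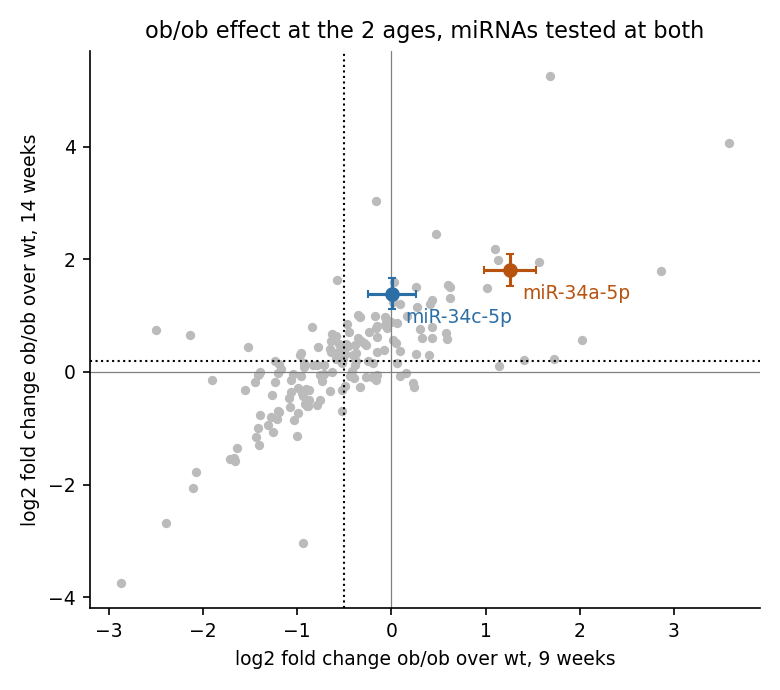
Log2 fold change of ob/ob over wild type at 9 weeks (x axis) against that at 14 weeks (y axis) for miRNAs tested at both ages, with the 2 members marked with their SE and dotted lines at the medians of all tested at each age. miR-34a-5p lies at 1.26 and 1.81, and miR-34c-5p at 0.01 and 1.39.

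The ratio of the 2 members within a library does not depend on scaling. At 9 weeks it was 3.12, 1.78, 2.71 and 4.45 in wild-type replicates 1 to 4, and 7.04, 9.82 and 5.46 in ob/ob replicates 1 to 3. All 3 ob/ob ratios were above all 4 wild-type ones. The log2 ratio was taken with 0.5 RPM added to each member, which lets scaling bear on it. Its mean was 1.30 ± 0.48 in wild type (SD, n = 4) and 2.56 ± 0.34 in ob/ob (SD, n = 3). The difference was 1.25 (two-sided exact permutation p = 0.0571, the smallest that this design allows). With nothing added it was 1.34 (exact permutation p = 0.0571).

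At 14 weeks the ratio was 3.22, 2.28, 3.02 and 4.03 in wild type, and 2.43, 2.85, 3.51 and 7.55 in ob/ob. The groups overlapped except for ob/ob replicate 4. The log2 means were 1.35 ± 0.28 and 1.77 ± 0.67 (SD, n = 4 each), a difference of 0.43 (exact permutation p = 0.343, smallest possible 0.0286), and of 0.10 without ob/ob replicate 4. Whether the difference in ratio changed with age was not tested.

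Seen as reads, miR-34c-5p made up 24.3%, 36.0%, 27.0% and 18.3% of the reads of both members in the 9-week wild-type libraries. It made up 12.4%, 9.24% and 15.5% in the 9-week ob/ob libraries. At 14 weeks its share was 23.7%, 30.5%, 24.8% and 19.9% in wild type, and 29.2%, 26.0%, 22.2% and 11.7% in ob/ob. The last of these had an exact binomial 95% interval of 10.1% to 13.5% that covers counting error only. No library lay far enough from its group by Dixon's criterion, in 15 comparisons within groups of 4 libraries, which covered the 2 levels on both scales and their ratio.

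**Figure D4:**
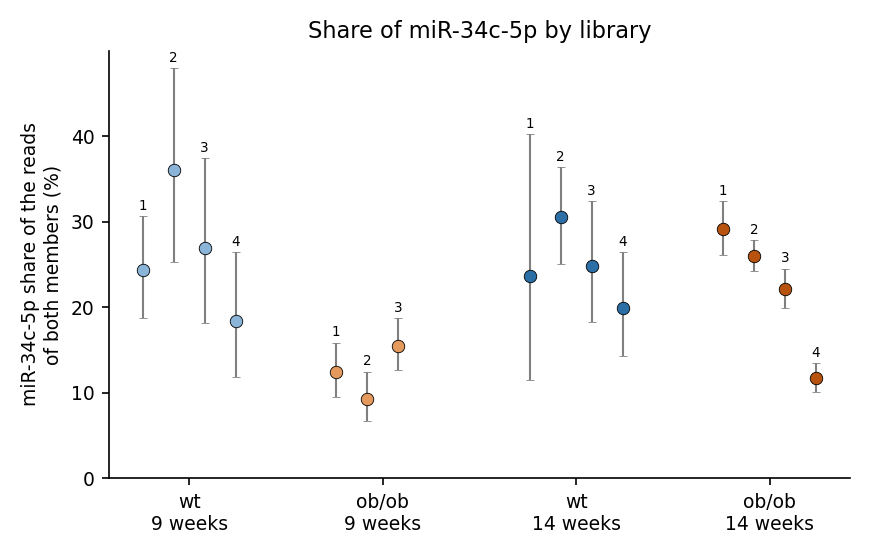
Share of miR-34c-5p in the reads of both members, in percent, for each library with its exact 95% binomial interval. The 9-week ob/ob libraries lie at 9.24% to 15.5% and 14-week ob/ob replicate 4 at 11.7%, below every wild-type library, the lowest of which is at 18.3%.

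Lists of miRNAs linked to p53 were drawn up with these results already known. The p53-induced list held 10 miRNAs, the 2 members included, of which 9 were tested. At 9 weeks 2 of the 9 rose and none fell, beside 5.03% of all tested that rose and 32.4% that fell. The 2 were miR-34a-5p itself and miR-192-5p. At 14 weeks 5 rose and none fell, beside 11.7% and 3.51% of all tested. The 5 were both members, miR-192-5p, miR-194-5p and miR-141-3p. After rescaling, 4 rose at 9 weeks, beside 11.3% of all tested, and 5 at 14 weeks, beside 15.4%. miR-34a-5p was among the 4, and both members were among the 5. The 5 were not the same on both scales, since rescaling added miR-215-5p (limma adjusted p = 0.0460) and dropped miR-194-5p. The median log2 fold change of the list, members included, was 0.26 at 9 weeks beside -0.51 over all tested. At 14 weeks it was 1.20 beside 0.20. miR-192-5p, which targets the p53 inhibitor Mdm2 and is also abundant in hepatocytes, rose from 1556 ± 459 RPM (SD, n = 4) in wild type to 4494 ± 743 RPM in ob/ob (SD, n = 3) at 9 weeks. At 14 weeks it rose from 1317 ± 247 to 5212 ± 1590 RPM (SD, n = 4 each; log2 fold change 1.94 ± 0.30, limma adjusted p = 0.00256). Its cluster partner miR-194-5p rose at 14 weeks from 107.7 ± 7.39 to 187.0 ± 7.18 RPM (limma adjusted p = 0.0352), a call that rescaling ended (adjusted p = 0.121). At 9 weeks miR-194-5p was not called as deposited (limma adjusted p = 0.195) and rose after rescaling (0.93, adjusted p = 0.0238). The rise of miR-192-5p was called on both scales at both ages.

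Of 4 tested miRNAs whose processing p53 is known to aid, none passed the limma test at 9 weeks (0 also at an unadjusted p under 0.05), beside 37.4% of all tested, and 1 rose at 14 weeks, beside 11.7%. This was miR-16-1-3p, at 2.38 ± 1.10 RPM in wild type and 5.82 ± 0.762 RPM in ob/ob (SD, n = 4 each; limma adjusted p = 0.0442). miR-143-3p, with a log2 fold change of 1.27 ± 0.43, missed the threshold as deposited (limma adjusted p = 0.0749) and passed after rescaling (adjusted p = 0.0490). miR-16-5p, at 0.20 ± 0.26, and miR-145a-5p, at -0.32 ± 0.95, did not pass on either scale.

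Among p53-repressed miRNAs of the miR-17-92 cluster, miR-19a-3p rose at 14 weeks, from 10.6 ± 3.17 to 62.3 ± 26.8 RPM (SD, n = 4 each; log2 fold change 2.45 ± 0.37, limma adjusted p = 0.00256), and was 1 of 2 tested, beside 11.7% of all tested. At 9 weeks 1 of 3 tested fell, which is close to the 32.4% of all tested. This was miR-92a-3p, whose log2 fold change was -0.74 ± 0.20 (SE; limma adjusted p = 0.0220). The fall was not called after rescaling (-0.23, adjusted p = 0.374), where miR-19a-3p was the 1 that rose (0.97, adjusted p = 0.0208), beside 11.3% of all tested.

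Of 6 tested regulators of p53 or of its pathway, 4 fell and 1, miR-122-5p, rose at 9 weeks, when 32.4% of all tested fell. None passed the limma test at 14 weeks, where 11.7% of all tested rose and 3.51% fell. An unadjusted p under 0.05 was found for 2, and the share of all tested at that threshold is not given here. miR-125a-5p and miR-125b-5p, which are known to target p53 mRNA, fell at 9 weeks with log2 fold changes of -1.67 ± 0.31 (limma adjusted p = 0.0054) and -1.21 ± 0.24 (adjusted p = 0.0070). After rescaling, 1 rose and 1 fell at 9 weeks, where 11.3% of all tested rose and 10.2% fell. These were miR-122-5p and miR-125a-5p (limma adjusted p = 0.0211 and 0.0317), while the fall of miR-125b-5p was not called (-0.70, adjusted p = 0.0627). At 14 weeks 1 rose and 2 fell, where 15.4% of all tested rose and 12.4% fell. The 2 that fell were miR-125a-5p and miR-125b-5p, and the one that rose was miR-29b-3p (limma adjusted p = 0.0325 after rescaling). Its levels as deposited were 30.4 ± 8.58 RPM in wild type and 61.3 ± 14.3 RPM in ob/ob (SD, n = 4 each). On that scale it missed the threshold (limma adjusted p = 0.0535).

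The miRNAs most like each member were ranked by the Pearson correlation of log2 levels centred within each age over the 15 libraries, among 167 that passed the filter at both ages. The libraries share genotype and depth differences, so these values are a description. For miR-34a-5p the 5 highest were miR-192-5p (r = 0.957), miR-210-3p (0.952), miR-144-5p (0.950), miR-374b-5p (0.929) and miR-365-3p (0.898). After rescaling, 4 of these kept the 4 highest places and miR-365-3p fell to rank 19 (r = 0.847). With each group centred on its own mean, the 5 values were 0.44 to 0.74. On that centring some other miRNAs were higher, among them miR-142a-5p (0.85) and miR-141-3p (0.82). miR-210-3p, which hypoxia is known to induce, stood at 4.06 ± 1.53 and 9.04 ± 1.48 RPM in wild-type and ob/ob libraries at 9 weeks. At 14 weeks it stood at 2.34 ± 0.676 and 10.9 ± 3.08 RPM, with no overlap of the groups at either age.

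For miR-34c-5p the 5 highest were miR-335-3p (0.921), miR-345-5p (0.864), miR-450b-5p (0.853), miR-152-5p (0.837) and miR-19a-3p (0.831). Centred within each group, these 5 values were 0.86, 0.66, 0.77, 0.69 and 0.18. miR-335-3p had, like miR-34c-5p, close group means at 9 weeks, 36.0 ± 9.38 RPM in wild type and 38.9 ± 17.2 RPM in ob/ob. At 14 weeks its means were 26.3 ± 11.8 and 74.3 ± 20.8 RPM. The 2 members were less like each other than like these, at r = 0.689, rank 24 for miR-34a-5p. With each group centred on its own mean, the correlation between the members was -0.05. No sequence of miR-34c-5p was at hand to compare. The seeds of the 2 leading partners differ from that of miR-34a-5p, as their sequences show with bases 2 to 8 in capitals.
miR-192-5p: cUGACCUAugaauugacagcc
miR-335-3p: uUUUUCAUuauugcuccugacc

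Markers of other cell types were read in the same libraries. The 4 listed hepatocyte miRNAs (miR-122-5p, miR-122-3p, miR-192-5p and miR-194-5p) summed to 1100 to 2222 RPM in wild type and 3966 to 5524 RPM in ob/ob at 9 weeks. At 14 weeks they summed to 1099 to 1689 and 3169 to 6899 RPM, so this sum moved with miR-34a-5p, and most of it was miR-192-5p. miR-122-5p, the most hepatocyte-restricted of them, rose at 9 weeks from 46.3 ± 29.0 to 166.2 ± 57.9 RPM (limma adjusted p = 0.0244). At 14 weeks it stood at 46.7 ± 39.2 and 54.9 ± 17.9 RPM (SD, n = 4 each; limma adjusted p = 0.551), with overlapping groups. The wild-type mean rested on the shallow replicate 1, at 100.7 RPM. Without that library it was 28.7 ± 19.1 RPM (SD, n = 3), and the log2 fold change was 1.06 ± 0.43 (SE; limma adjusted p = 0.103), with the groups still overlapping.

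**Figure D5:**
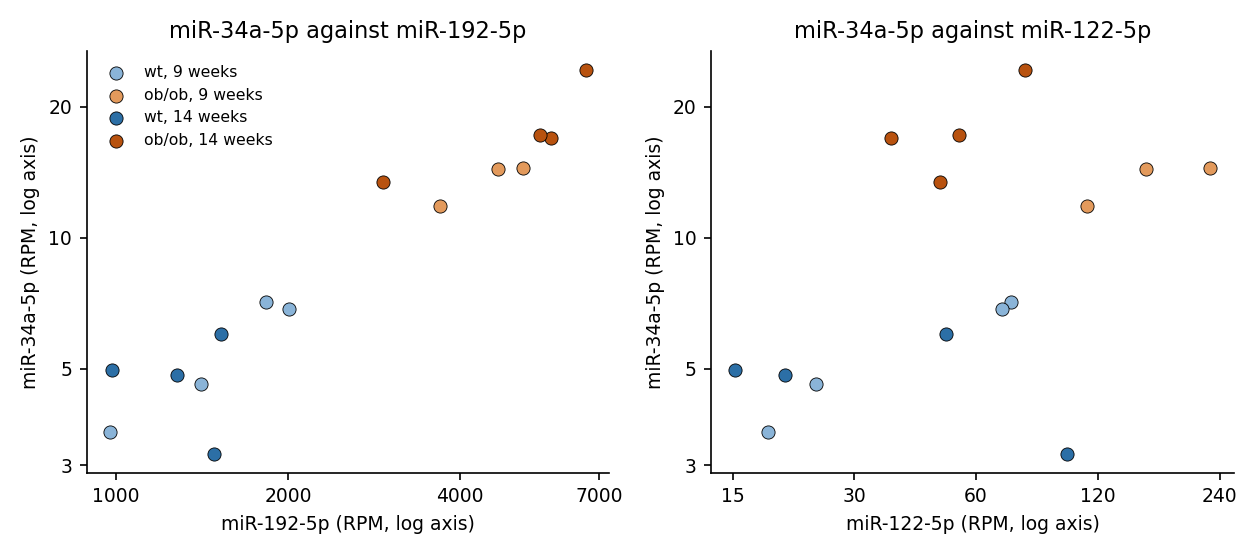
Level of miR-34a-5p against miR-192-5p and against miR-122-5p, in RPM on log axes, 1 point a library. Both axes separate the genotypes for miR-192-5p, while for miR-122-5p the 14-week ob/ob libraries, at 36.9 to 79.4 RPM, overlap the wild-type ones, at 15.2 to 50.6 RPM apart from replicate 1 at 100.7 RPM.

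The erythroid marker miR-144-5p stood at 0.522 to 1.49 and 0.331 to 0.974 RPM in wild type at 9 and 14 weeks, and at 14.7 to 21.7 and 11.6 to 32.4 RPM in ob/ob. Epithelial markers (5 listed) summed to 51.5 to 71.5 RPM in wild type and 54.8 to 88.2 RPM in ob/ob at 9 weeks, and to 24.1 to 56.9 and 52.97 to 103 RPM at 14 weeks. Their member miR-375-3p, too low to be tested at either age, went the other way at 14 weeks. It stood at 0.422 to 1.43 RPM in wild type and at 0 in every ob/ob library. At 9 weeks it stood at 0 to 0.670 RPM in wild type and 0.391 to 1.06 RPM in ob/ob. The 3 listed myeloid miRNAs summed to 3144 to 4465 and 2139 to 3272 RPM at 9 weeks, in wild type and ob/ob. At 14 weeks they summed to 1833 to 2917 and 2386 to 4026 RPM. Most of this was miR-142a-5p. miR-511-3p fell at 9 weeks from 159.0 ± 11.8 to 77.9 ± 23.9 RPM (limma adjusted p = 0.00984), a call that rescaling ended (adjusted p = 0.0860). At 14 weeks it stood at 150.5 ± 49.6 and 129.8 ± 20.3 RPM (limma adjusted p = 0.815). miR-142a-3p stood at 0.159 to 18.6 RPM in 14-week ob/ob and at most at 0.150 RPM in the other groups. The 2 endothelial miRNAs summed to 42296 to 59286 RPM in wild type and 18455 to 45923 RPM in ob/ob at 9 weeks. At 14 weeks they summed to 10833 to 63153 and 33630.5 to 55779 RPM. The 5 stellate and mesenchymal miRNAs summed to 1380 to 1800 and 934 to 1567 RPM at 9 weeks. At 14 weeks this was 495 to 1860 and 1347 to 2668 RPM. For the 3 lymphocyte miRNAs it was 7421 to 7649 and 4935 to 6729 RPM, then 5075 to 8207 and 5752 to 7982 RPM. The part of these cell types in the levels of either member was not tested. In bulk libraries, fewer cells of a type and less RNA per cell cannot be told apart.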

How the data were processed

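RNA was extracted with a miRNeasy kit, made into TruSeq Small RNA libraries and sequenced on a HiSeq instrument, per the labels' protocols. The submitters' processing notes name bcl2fastq, cutadapt, GRCm38.p5 and mm10. No source used here gives the aligner, the counter or the miRNA annotation. The authors deposited 1 table for each age with no unit in its header. The deposited values were taken as RPM from their steps, the reads in the denominator are not stated, and normalization across the tables is not stated, so genotype was tested within a table. In each library all values above 0 (203 to 238 miRNAs) were whole multiples of 1 step, within 0.1 reads. Dividing by that step gave reads, used only for depth and for counting intervals.

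Values were analysed as log2(RPM + 0.5), keeping miRNAs with at least 1 RPM in as many libraries as the smaller group held. limma 3.58.1 (R 4.3.3; trend and robust moderation) was fitted to each age, and to all 15 libraries for the difference between ages, with Benjamini-Hochberg adjustment over all tested. Fold changes on this scale understate those of low miRNAs. Ratios were compared with exact permutation tests (scipy 1.17.1). The fits were tested on simulated data. Median-ratio rescaling used miRNAs with a mean of at least 5 RPM. Other alternatives were pseudocounts of 0.1 and 1, no filter, scaling to the sum of listed miRNAs, lane, a replicate block and leaving out each library.

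The members and lists were chosen with earlier results of these data known. Named miRNAs were the members, the 5 most correlated with each, and up to 4 a list by smallest p at 14 weeks. Other list members named had passed the test or were cell type markers. Other arms of miR-34a, miR-34b, miR-34c and miR-449 are not analysed here.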

Additional observations from a re-analysis of the deposited data

How the results depend on the processing

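The rise of miR-34a-5p at 9 weeks kept its direction and passed the threshold under every alternative run, with log2 fold changes of 1.19 to 1.86, and of 1.09 to 1.39 when 1 library was left out. At 14 weeks, miR-34a-5p and miR-34c-5p stayed above 0 in every alternative and passed the threshold in all but lane 1 alone. There miR-34a-5p gave 1.81 (adjusted p = 0.335) and miR-34c-5p 1.66 (0.335), and after rescaling, in an alternative added after seeing the data, 1.33 (0.268) and 1.24 (0.315); these fits hold 2 libraries a genotype. Leaving out 1 library gave 1.65 to 1.94 for miR-34a-5p and 1.24 to 1.56 for miR-34c-5p at 14 weeks. The 9-week value of miR-34c-5p changed sign: it ran from -0.19 to 0.15 with 1 library left out, lowest without ob/ob replicate 3. The difference between ages reversed for miR-34a-5p after rescaling (-0.13); with 1 library left out it was 0.39 to 0.72, and 1.23 to 1.58 for miR-34c-5p (adjusted p 0.0536 to 0.210). For the ratio of the members, leaving out 1 library gave 1.05 to 1.43 at 9 weeks and 0.10 to 0.61 at 14 weeks.

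Replicate numbers are shared between the genotypes, but same-numbered libraries did not deviate together (r of -0.14 to 0.18 at 9 weeks and -0.24 to 0.20 at 14 weeks), nor did every library correlate best with its own number. With the replicate block, the 9-week log2 fold change of miR-34c-5p was -0.062 (adjusted p = 0.954), miR-34a-5p was 1.37 at 9 weeks and 1.81 at 14 weeks, and miR-34c-5p was 1.39 at 14 weeks; the block changed no call. Counting error bears on miR-34c-5p, with 9 to 583 reads a library. Without wild-type replicate 1 at 14 weeks, chosen after seeing the data, the log2 fold change of miR-122-5p was 1.06 as deposited and 1.08 rescaled (adjusted p = 0.103 and 0.117).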

Other observations

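Within the 14-week ob/ob group, replicate 4 combined the highest miR-34a-5p of the 15 libraries, 24.3 RPM, with 6628 RPM of miR-192-5p, also the highest, and 3.22 RPM of miR-34c-5p, the lowest of its group. Its depth was within the range of its group, and it held 1253 reads of miR-34a-5p and 166 of miR-34c-5p.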
